A study of Mus musculus with 2 samples.

Results

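The complement and coagulation factors are serum proteins that the liver makes for innate immunity and for blood clotting. The 33 genes described here were chosen by name, 16 of the complement system and 17 of clotting and fibrinolysis, and each was found on the arrays by its gene name. All 33 were measured, by 44 probes, among 19955 measured genes and 39429 probes in all. A gene was counted as measured when both arrays read a probe of it well above background, and its value is the median over its probes.

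Liver RNA of C57BL/6N mice was compared between 2 genotypes, wild type (Pnpla8+/+) and Pnpla8-/-, on 1-colour Agilent arrays labelled with Cy3. Pnpla8 encodes a calcium-independent phospholipase. Each genotype was 1 array, and the array held RNA that the series' design text describes as a pool in equal amounts from 5 mice. The sample labels give an age of 6 weeks and the design text 8 weeks, and the sources used here do not settle which holds. They also do not give the sex of the mice, the tissues in which the allele was deleted or the exons removed. With 1 array per genotype no difference has a replicate check and no test was possible, and genotype, pool and array cannot be told apart. Values are log2 ratios of the knockout pool over the wild-type pool, after each array was divided by its own 75th percentile of processed signal, which was 1207 for wild type and 1018 for knockout. Of 43020 spots, 70.1% exceeded background clearly for wild type and 65.6% for knockout. The Pnpla8 probe, as a check of the labels, did so for wild type alone, with a bound of at least 6.81-fold; whether it lies in the deleted part is not given.

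Complement is a chain of proteases and binding proteins in plasma. Antibody complexes (classical pathway), sugars on microbes (lectin pathway) or slow self-activation (alternative pathway) lead to cleavage of C3, and the terminal components C5 to C9 then build the membrane attack complex, a pore in the target membrane. Coagulation is a second protease chain, in which vitamin K-dependent factors and the contact factors lead to thrombin, thrombin turns fibrinogen into fibrin, and plasmin later dissolves the clot. Hepatocytes are the main source of most of these proteins.

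The data showed small differences throughout, with the lowest values among the terminal complement genes and the highest among the clotting genes. Over the 33 genes the median log2 ratio was 0.16, with a range from -0.80 for C6 to 0.43 for Hrg. No gene of the 33 was 2-fold higher or 2-fold lower, where 1.29% and 1.85% of all measured genes were, and 2.41% and 0.401% of the 1995 genes in the highest decile of signal. At 1.5-fold, 0 of the 33 were higher and 1, C6, was lower, against 4.41% and 5.94% of all genes. In the highest decile of signal, 7.42% were 1.5-fold higher and 1.3% lower. The count of 1 in 33 is thus no larger a share than over all genes.

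**Figure D1:**
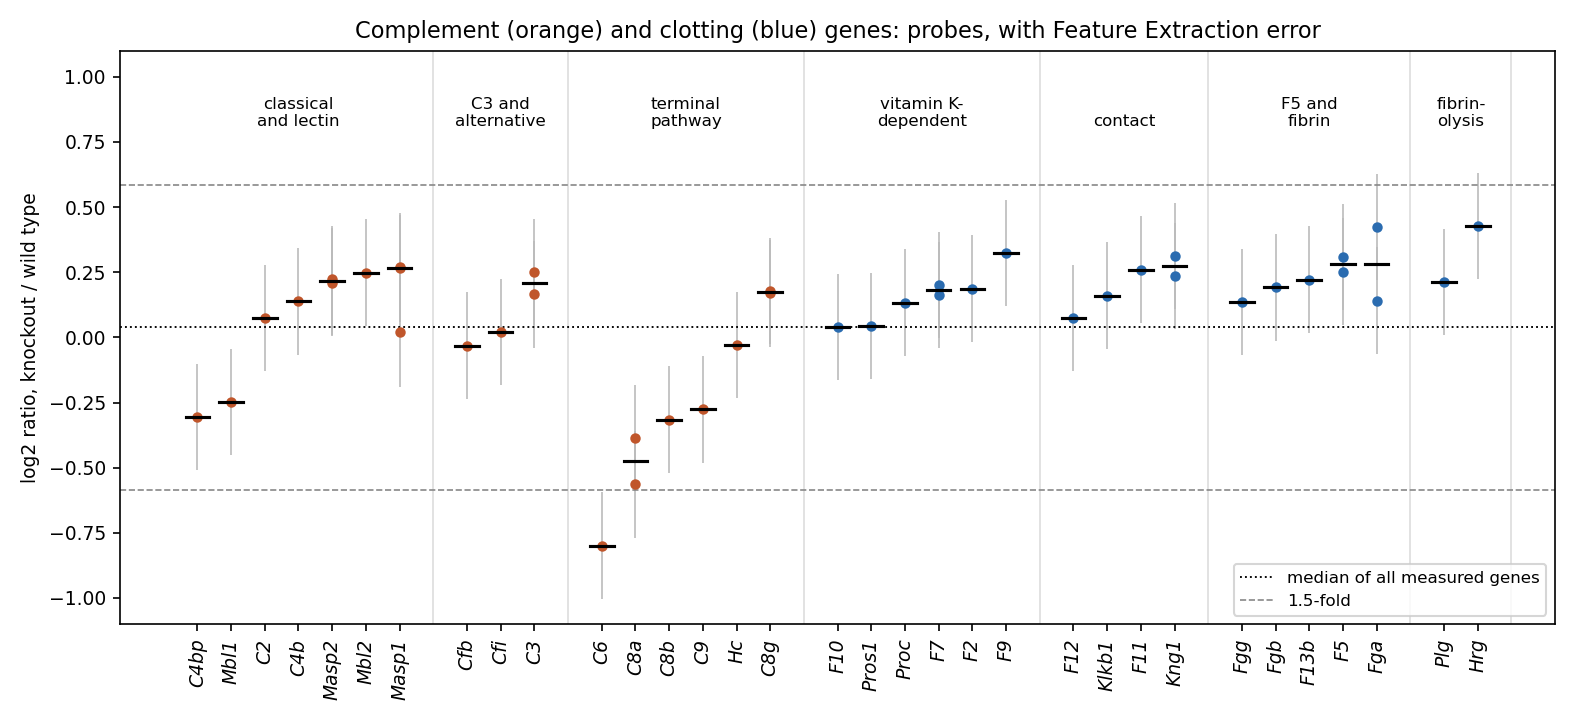
Log2 ratio of the knockout over the wild-type pool (vertical axis) for each of the 33 genes, grouped by role (horizontal axis), with points for probes, thick bars for gene medians and grey lines for the scanner software's error. The values run from -0.80 (C6) to 0.43 (Hrg), and the terminal complement genes other than C8g lie at or below -0.03.

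The medians of the 2 cascades differed, less so without the terminal complement genes. The 17 clotting genes had a median of 0.19 and all 17 were above 0, from 0.04 for F10 to 0.43. The 16 complement genes had a median of -0.0046, with 8 above and 8 below 0. Of all measured genes 56.9% were above 0 and their median was 0.04, 43.1% were below 0, while in the highest decile of signal 70.5% were above 0, 29.5% below, and the median was 0.12. Of the 16 complement genes, 9 lay below F10, the lowest clotting gene. Of all measured genes 50.2% lay below F10, and 38.0% of those in the highest decile of signal. The count of 9 in 16 is thus not far from the share over all genes. The difference in medians, complement minus clotting, was -0.20. The 10 complement genes outside the terminal group had a median of 0.11, with 7 above and 3 below 0. The sign of a single value depends on the scaling. Below 0 were 11 of the 17 clotting genes without scaling, 6 with quantile scaling, 5 with loess and 6 with the E1A spike-ins. In the same order, 14, 11, 11 and 11 of the 16 complement genes were below 0. The difference of medians still lay between -0.25 and -0.20 under all 13 alternatives, many of which cannot move it.

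Several measures of precision can be set beside these values, none of which holds the spread between animals. Probes spotted many times gave a median SD of 0.04 between their spots, over 253 probes. Probes of the same gene differed by a median SD of 0.09, over 4274 genes. The scanner software's own error of the log2 ratio was larger, with a median of 0.20 over the 44 probes.

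The terminal components were the lowest group, with a median of -0.30 over 6 genes. Below 0 were 5 of the 6, against 43.1% of all measured genes and 29.5% of those in the highest decile of signal. Probes of 4 of the 6 genes are printed in full, from the deposited array data with positions on mouse build mm9. They are C6 (chr15:4748363-4748422, plus strand), C8a (chr4:104499275-104499334, minus strand), C9 (chr15:6433127-6433186, plus strand) and C8g (chr2:25355615-25355674, minus strand). For C8a and C8g the dimmer of 2 probes is printed, which gave -0.39 for C8a and 0.18 for C8g.
C6: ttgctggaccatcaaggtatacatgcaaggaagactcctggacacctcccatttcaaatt
C8a: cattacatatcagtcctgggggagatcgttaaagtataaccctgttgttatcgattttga
C9: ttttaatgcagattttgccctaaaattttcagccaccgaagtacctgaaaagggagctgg
C8g: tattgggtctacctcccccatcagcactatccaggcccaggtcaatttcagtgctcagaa

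C6 joins the C5b fragment as the first step of pore assembly. Its probe read 763 in the wild-type pool and 370.2 in the knockout pool, a log2 ratio of -0.80 or 1.74-fold lower, and 3.44% of all measured genes were as low or lower. C6 had the lowest of the 33 values under all 13 alternatives, including quantile scaling, loess and normexp, which can change the order. C8a, the alpha chain of C8, had 2 probes that were both lower in the knockout, one at 12125 and 6918 (log2 ratio -0.56) and the other at 1228 and 793 (-0.39). The gene's value was -0.48, or 1.39-fold lower. C8b, the beta chain, read 14917 and 10113, a log2 ratio of -0.32.

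C9, which forms the wall of the pore, read 1515 and 1055, a log2 ratio of -0.28. Hc, the mouse gene of C5, read 93352 and 77160, which after scaling is a log2 ratio of -0.03. With median scaling Hc was above 0, at 0.03. C8g encodes the gamma chain of C8, a lipocalin. Its 2 probes gave 0.18 and 0.17, so that C8g lay on the other side of 0 from the alpha and beta chains of the same protein. Without scaling C8g was at -0.07, on the same side of 0 as C8a (-0.72) and C8b (-0.56). The difference of C8a from C8g was -0.65, and between -0.73 (brightest probe) and -0.58 (loess) over the alternatives, many of which cannot move it. That of C8b from C8g was -0.49, and between -0.49 and -0.45.

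The 7 genes of the classical and lectin pathways had a median of 0.14, with 5 above and 2 below 0. The 2 below 0 were C4bp, the inhibitor that binds C4b, and Mbl1, a mannose-binding lectin. C4bp read 79208 and 54071, a log2 ratio of -0.31, and Mbl1 read 8650.0 and 6141, a log2 ratio of -0.25. Mbl2, the other mannose-binding lectin, read 146865 and 147235, a log2 ratio of 0.25. The lectins thus differed by -0.50 (Mbl1 minus Mbl2). Of the alternatives, only quantile scaling (-0.36), loess (-0.40) and normexp (-0.47) changed this difference.

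Masp1 and Masp2 encode the proteases bound to those lectins. Masp2 stood at 0.21 with 3 probes in close accord, and Masp1 at 0.26, where the dimmest of its probes (216 and 185) gave 0.02. C2, the protease part of the classical C3 convertase, was at 0.07 (33600.2 and 29851). C4b, its other part, was at 0.14 (107405 and 99717), but mice carry a near-identical copy of this gene and the probe may read both. Of the alternative pathway and C3 itself, C3 was at 0.21, Cfi, the protease that degrades C3b, at 0.02 (104046 and 89017), and Cfb, the alternative pathway's protease, at -0.03 (115737 and 95527). One C3 probe was spotted 10 times and its spots had an SD of 0.12.

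**Figure D2:**
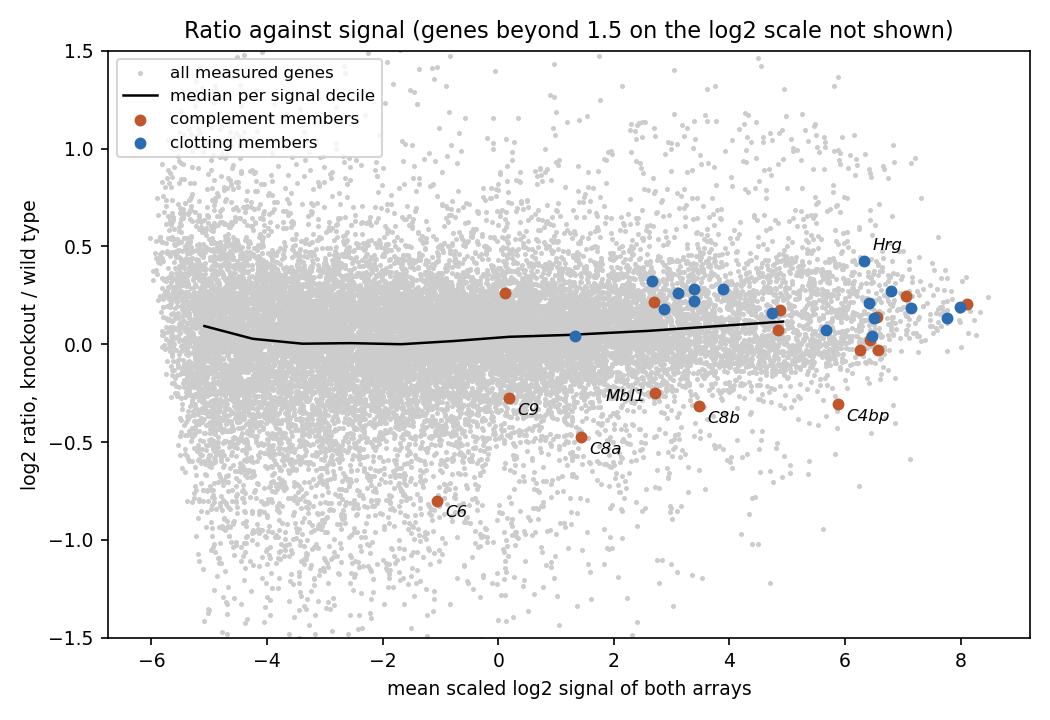
Log2 ratio of the knockout over the wild-type pool against the mean scaled log2 signal of both arrays, for complement (orange) and clotting (blue) genes over all measured genes (grey), with the black line through the median of each signal decile. The clotting genes lie above 0 from F10 at 0.04 to Hrg at 0.43, and the 6 lowest genes are C6, C8a, C8b, C4bp, C9 and Mbl1.

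The 6 vitamin K-dependent genes, which encode factors whose glutamates are carboxylated, had a median of 0.16. F9, the factor deficient in haemophilia B, was the highest of them and read 6804 and 7186, a log2 ratio of 0.32. F2, prothrombin, read 158891 and 152610 and was at 0.19, and F7, the partner of tissue factor, at 0.18. Without scaling the log2 ratio was -0.058 for F2 and 0.079 for F9, so that only F9 of this pair was above 0 before scaling. Proc, the anticoagulant protein C, read 104876 and 97072 and was at 0.13, and F10 and Pros1, the cofactor of protein C, were both at 0.04 (104733 and 90902 for F10, 2969 and 2580.3 for Pros1).

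The 4 contact factors had a median of 0.21. Kng1, high-molecular-weight kininogen, was at 0.27 and F11 at 0.26 (9492 and 9592), while Klkb1, plasma prekallikrein, was at 0.16 (30506 and 28765) and F12, which starts the contact pathway, at 0.08 (59904 and 53231). One of the 2 Kng1 probes lies on the minus strand of chromosome 16 near the probe of the neighbouring Kng2, whereas the other lies on the plus strand. Without it Kng1 was at 0.24, the value of Kng2.

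F5 and the fibrin genes, 5 in all, had a median of 0.22. F5, the cofactor of factor Xa, was at 0.28, and F13b, the carrier subunit of the fibrin-linking enzyme, at 0.22 with an SD of 0.02 over 10 spots. The fibrinogen chains were at 0.28 (Fga), 0.19 (Fgb, 286370.3 and 275897) and 0.14 (Fgg, 248823 and 230637). Fga had the widest gap between probes among the 9 genes with several, 0.14 for one and 0.42 for the other. In fibrinolysis, Plg, plasminogen, was at 0.21 (96191 and 94042). Hrg, histidine-rich glycoprotein, which binds plasminogen and heparin, read 83995 and 95314, a log2 ratio of 0.43 or 1.35-fold higher.

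**Figure D3:**
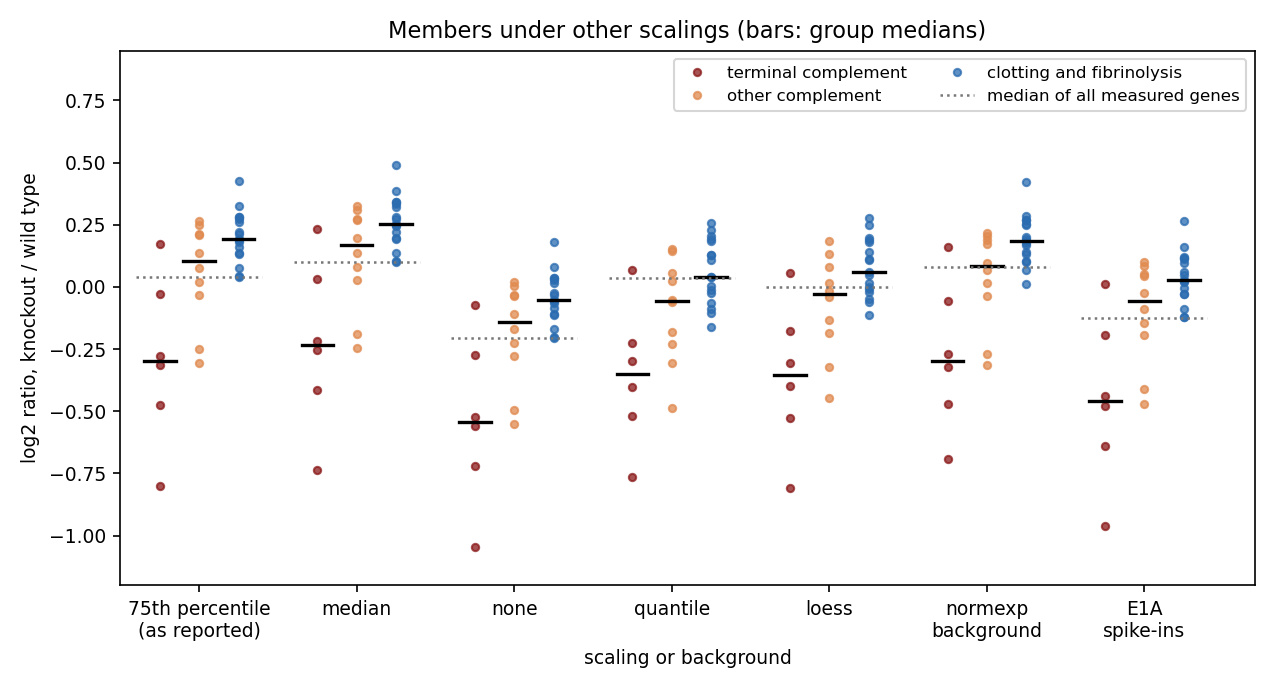
Log2 ratios of the terminal complement, other complement and clotting genes under the reported scaling and 6 others, with group medians as bars and the median of all measured genes dotted. The level of all groups moves with the scaling, while the terminal complement median stays between 0.39 and 0.49 below the clotting median.

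Several of the genes are neighbours. In the RefSeq gene table of build GRCm38.p6, 14 of the 33 lie within 200 kb of another of them, in 6 clusters. C8a and C8b on chromosome 4 were both below 0, and the fibrinogen genes on chromosome 3, F7 with F10 and F11 with Klkb1 on chromosome 8, and Hrg with Kng1 on chromosome 16 were all above 0. C4b and C2 were above 0 beside Cfb at -0.03 on chromosome 17.

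The sequence upstream of the start was available from RefSeq (GRCm38.p6) for 25 of the 33 genes, and 250 bases of each were searched on both strands for short words bound by liver transcription factors. GTTAAT was found in 7 of 25 (28.0%), against 6.52% of 27025 promoters. The 7 were C4bp, C8a, C8b, F13b, Fga, Fgb and Hc, 4 of the 11 complement genes and 3 of the 14 clotting genes, so that the word stood before genes on both sides of 0. TTGCNNAA, a C/EBP word, was found in 8 of 25 (32.0%) against 9.55%, and TTCNNNGAA, a STAT word, in 6 (24.0%) against 7.18%. TGTTTAC, a forkhead word, was found in 2 (8.00%), F11 and Klkb1, against 3.09%. CAAAGTCCA, an HNF4 word, was found in 0 of 25 members, and in 103 of all promoters. The 4 promoters below belong to neighbouring genes with the word on both sides of 0, C8a (chr4:104876399-104876648, minus strand), C8b (chr4:104766067-104766316, plus strand), Fga (chr3:83025903-83026152, plus strand) and Fgb (chr3:83049864-83050113, minus strand), with GTTAAT or its reverse complement in capitals.
C8a: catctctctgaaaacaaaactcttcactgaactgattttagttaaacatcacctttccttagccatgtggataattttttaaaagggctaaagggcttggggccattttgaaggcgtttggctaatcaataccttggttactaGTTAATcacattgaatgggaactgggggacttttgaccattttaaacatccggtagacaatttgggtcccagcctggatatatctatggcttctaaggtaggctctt
C8b: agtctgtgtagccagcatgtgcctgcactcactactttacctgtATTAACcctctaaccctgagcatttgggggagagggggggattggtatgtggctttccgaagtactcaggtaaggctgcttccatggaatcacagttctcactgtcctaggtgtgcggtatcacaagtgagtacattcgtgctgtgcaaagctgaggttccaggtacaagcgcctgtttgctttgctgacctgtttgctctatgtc
Fga: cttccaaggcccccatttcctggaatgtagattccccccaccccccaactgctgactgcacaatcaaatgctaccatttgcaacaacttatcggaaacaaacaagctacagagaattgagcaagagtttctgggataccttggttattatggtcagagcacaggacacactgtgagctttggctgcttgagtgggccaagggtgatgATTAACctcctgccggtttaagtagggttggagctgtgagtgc
Fgb: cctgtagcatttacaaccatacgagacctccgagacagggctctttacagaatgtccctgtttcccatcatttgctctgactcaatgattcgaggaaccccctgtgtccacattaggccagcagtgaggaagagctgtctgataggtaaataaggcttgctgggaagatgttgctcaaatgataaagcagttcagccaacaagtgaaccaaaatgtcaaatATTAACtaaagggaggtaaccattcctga

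The word begins 107 bases before the start of C8a, 206 before C8b, 43 before Fga and 29 before Fgb.

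Other complement genes, 29 measured of 33 listed, had a median of -0.12, with 8 of them 1.5-fold lower and 2 of them 2-fold lower, against 5.94% and 1.85% of all genes. The count at 2-fold was 7 without scaling, 6 with the E1A spike-ins and 1 with median scaling or normexp. Among the 19955 measured genes, 760 were 2-fold lower without scaling, 609 with E1A, 305 with median scaling and 128 with normexp. The median of the other complement genes was -0.37 without scaling and -0.29 with E1A. The 8 were the C1q chains C1qa, C1qb and C1qc, the receptor genes Itgax, Itgb2 and Vsig4, the ficolin gene Fcna (-0.68) and Cfp (-0.82), properdin of the alternative pathway. C1qa, a chain of the antibody-binding C1q, read 4759 and 1939, a log2 ratio of -1.05 or 2.07-fold lower, and C1qb was at -0.93. All 7 measured receptors were below 0 (6 after normexp), with a median of -0.50 (-0.20 after normexp). The lowest were Itgax at -1.14 and Itgb2 at -0.87, the chains of complement receptor 4. The probes of Itgam disagreed, from -0.69 to 0.48, around a gene value of -0.07. C1qa was at -0.99 with median scaling and Itgax at -0.84 after normexp, both then under 2-fold.

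Other clotting genes, 23 measured of 28, had a median of 0.03, with 12 above and 11 below 0. Procr, the endothelial receptor of protein C, was 2.04-fold lower (-1.03). Gas6 was at -0.54 and Tfpi, the inhibitor of the tissue factor pathway, at -0.46. Procr was under 2-fold after normexp (-0.75), with median scaling (-0.97) and with quantile scaling (-0.96). The median of these genes was below 0 under several scalings, at -0.21 without scaling, -0.13 with E1A, -0.060 with quantile scaling and -0.051 with loess.

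Markers of Kupffer cells, the liver's macrophages, were lower in the same comparison. All 12 were 1.5-fold lower, against 5.94% of all measured genes, and 11 were after normexp, against 581 of 19955. The list had a median of -0.90 and a summed scaled signal that went from 103 for wild type to 49.8 for knockout. C1qa, C1qb, C1qc and Vsig4 belong to that list too. The hepatocyte list, 11 measured of 12, had a median of 0.24 and a sum of 1651 and 2054. It had 10 genes above 0, against 56.9% of all measured genes and 70.5% of those in the highest decile of signal. Its median was 0.052 with quantile scaling, 0.072 with loess, 0.079 with E1A and -0.0029 without scaling, where 6 of the 11 were below 0. Their part in the results was not tested, and in whole liver fewer cells of a type and less RNA per cell cannot be told apart. The other marker lists had medians of -0.19 (endothelial, 12 genes), -0.40 (stellate, 11), 0.04 (cholangiocyte, 8), -0.42 (neutrophil, 6 of 8), -0.70 (lymphocyte, 7 of 8) and -0.30 (megakaryocyte, 5 of 8). After normexp the last 3 were -0.012, -0.35 and 0.040, and without scaling the cholangiocyte median was -0.21 and the endothelial, stellate, neutrophil and megakaryocyte medians were -0.43, -0.64, -0.67 and -0.55.

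**Figure D4:**
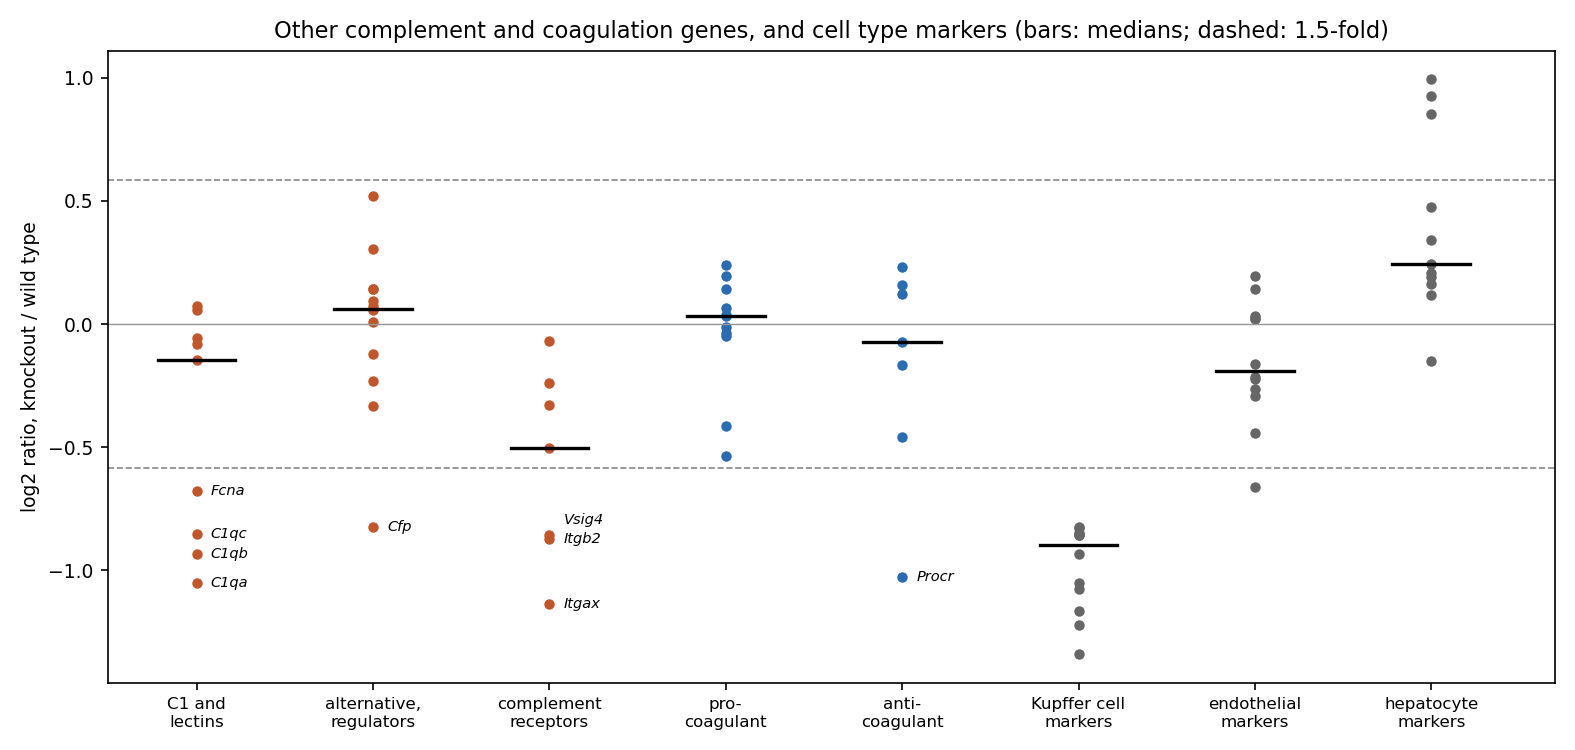
Log2 ratios of the knockout over the wild-type pool for the genes of the other complement, other procoagulant and anticoagulant, Kupffer, endothelial and hepatocyte lists, with medians as bars and 1.5-fold dashed. The Kupffer list has a median of -0.90 and the hepatocyte list 0.24.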

How the data were processed

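Liver RNA pools of 2 genotypes were measured on 1 Agilent 1-colour array each, from 200 ng of RNA. The deposited scanner files hold linear intensity, background-subtracted and spatially detrended by the authors; the submitters' processing notes name Feature Extraction 11.5.1.1. They give probe positions on mm9 per the file headers. The deposited value table is that intensity divided by 1207 and 1019. It has 0 columns of other samples.

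Here, log2 of the processed signal minus each array's 75th percentile was taken, outlier spots (119 and 170) were left out, and genes took the median of their probes. With 1 array per genotype, no test was run. Genes were counted at 2-fold and 1.5-fold. All 33 members were named, Pnpla8, and of 12 other lists the genes 2-fold apart and up to 4 with the largest ratios; a few that this rule names are not reported here. Members and lists were chosen with earlier results of these data known. Of 44 probes, 42 matched the RefSeq table by accession.

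The 13 alternatives were other scalings (none, median, quantile, loess with span 0.3, E1A spike-ins over 8 probes), normexp background with offset 50 (limma 3.58.1, R 4.3.3), the deposited table, and choices of probes and filters. Of these, 2 (E1A, and leaving out a Kng1 probe) were added after the data were seen. Scripts ran in Python 3.11.15 with numpy 2.4.6, pandas 2.3.3 and statsmodels 0.14.6 and were tested on simulated data.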

Additional observations from a re-analysis of the deposited data

How the results depend on the processing

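The scaling sets the level of all values. Without scaling the median of all genes moved by -0.25, and with the E1A spike-ins, chosen after seeing the data, by -0.16. Without scaling 1 of the 33 genes was 2-fold lower and 2 were 1.5-fold lower, against 760 and 2428 of 19955 measured genes. With E1A 2 of the 33 were 1.5-fold lower, against 1889 of the 19955. The 8 genes below 0 became 25 without scaling, 17 with quantile scaling, 16 with loess and 17 with E1A. In the same order, the median of the 33 genes was -0.085, -0.014, 0.0004 and -0.0029, that of complement -0.25, -0.20, -0.15 and -0.17, and that of clotting -0.054, 0.042, 0.061 and 0.028. These moves follow from the construction of the unscaled and spike-in values. Loess by construction subtracts the ratio fitted at each level of signal, and the median ratio in the highest decile of signal was 0.12. For quantile scaling the cause was not tested. The complement minus clotting difference kept its sign under the 13 alternatives, and the 6 lowest genes were the same 6. Only quantile scaling, loess, normexp and the choices of probes within a gene could have changed either. The other scalings shift a whole array by 1 constant, and the other filters did not touch the probes of these genes. The share of higher genes among all genes past 2-fold was 41.1% as reported, 13.1% without scaling, 18.5% with E1A, 33.2% with loess, 50.6% with median scaling and 51.3% with normexp. No paired analysis was possible because each genotype had 1 array, and no replicate could be left out. All 44 probes were well above background on both arrays, and C6 moved to -0.69 after normexp. The single array per genotype limits the precision.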

Other observations

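Among 22 acute-phase genes, the median log2 ratio was 0.06, with 13 above and 9 below 0. The median was below 0 under 4 scalings, at -0.19 without scaling (15 genes below 0), -0.12 with quantile scaling, -0.080 with loess and -0.11 with the E1A spike-ins. Of the 22 genes, 4 were 1.5-fold higher, against 4.41% of all genes, with Lcn2 at 0.97 and Il6ra, the interleukin-6 receptor, at 0.95. Socs3, an inhibitor of cytokine signalling, was at -1.24 and Saa3 at -1.11. Among 16 liver transcription regulators the median was 0.13, and it was -0.12 without scaling and -0.033 with E1A. Cebpd was 2.07-fold higher (1.05) and Cebpb was at 0.66, whereas Foxa1 was at -0.38. No regulator was 2-fold higher without scaling, with quantile scaling, with loess or with E1A, and 1 in place of 2 was then 1.5-fold higher. Hnf4a was at 0.23.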
